A study of Arabidopsis thaliana with 12 samples.

Results

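CCL (AT3G26740), XERICO (AT2G04240) and DI21 (AT4G15910) are 3 Arabidopsis thaliana genes whose transcripts were at a lower level in plants given 1 h of light than in plants still in the dark. Each was taken as a probe of the array whose annotation lists that gene and no other, which gave 3 probes, 1 per gene, of 692 such probes and 3439 in all. The genes were chosen by their light and dark intensities on these same arrays, so their difference is described below and not tested. Of the 12 arrays, 6 (replicates 1 to 6) measured total RNA of wild-type Columbia-0 plants, the common laboratory accession, that had received light for 1 h when a dark night ended. The other 6 (also replicates 1 to 6) measured wild-type Columbia-0 plants adapted to darkness overnight. The labels name no tissue, plant age, light intensity or hour of harvest. Whether the arrays of a group stand for separate plants is also not stated, so p-values cover the spread among the 12 arrays, part of which may be technical. Light and hour of harvest cannot be told apart.

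CCL is known as a transcript whose stability is set by the circadian clock, and it is a target of a decay pathway that recognises an instability element downstream of the coding region. Its protein is the Arabidopsis counterpart of the light-regulated rice protein LIR1, which takes part in holding ferredoxin-NADP reductase at the thylakoid membrane. XERICO is a small RING-H2 zinc finger protein. Extra XERICO raises the content of abscisic acid, the hormone of water stress, and its transcript is promoted by DELLA proteins and repressed by gibberellin. DI21 is named for its induction by drought and belongs to a family of late embryogenesis abundant proteins that also holds SAG21.

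Levels are given as scaled intensity, a linear relative brightness after quantile normalization of the arrays, whose deposited scale ends at 100. The brightness of different probes does not give the relative amounts of their transcripts, so each gene is followed across arrays, and percentiles below describe only how bright its probe was. The deposited columns summed to between 2943 and 3683, and 11.7 to 15.7% of the values of an array were exactly 0. All 3 genes were above the lowest value used for the logarithm (0.00675) in all 12 arrays and none was listed at 0. The number of arrays limits the precision. Arrays of the same group with numbers 1 and 2, 3 and 4, or 5 and 6 may be repeat measurements, which the labels do not state. In that case the SE values below may be too small. Same-numbered light and dark arrays deviated together once group means were taken off (correlations 0.301 to 0.557). The SE values do not use this, which can make them too large. In plant extracts, fewer cells with a transcript and less transcript per cell cannot be told apart.

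CCL ranged from 2.52 to 4.82 with a median of 4.26 in the 6 light arrays, against 8.99 to 16.4 with a median of 12.6 in the 6 dark arrays. The groups did not overlap. Light replicate 3 was the lowest light array, and dark replicate 3 was the lowest dark array. The mean was 3.98 ± 0.86 after 1 h of light and 12.6 ± 2.5 in the dark (SD, n = 6 each). The mean log2 difference, light minus dark, was -1.67 (SE 0.19), which is a level 3.18 times higher in the dark. The lowest dark array was still 1.87 times the highest light array. CCL was bright in both groups, at a median percentile of 97.1 among the probes of the same array in light and of 98.8 in the dark. In these plants the clock-regulated transcript was thus lower in light, but it remained among the brightest probes of every array (lowest percentile 95.5).

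XERICO ranged from 0.631 to 0.990 with a median of 0.904 in the light arrays, against 1.82 to 2.82 with a median of 2.103 in the dark arrays. The groups did not overlap here either, and the lowest dark array was 1.84 times the highest light array. Replicates 3 and 4 were the lowest of the light arrays, and replicate 4 was the lowest of the dark arrays. Replicate 1 was the highest in both groups. The mean was 0.849 ± 0.133 after 1 h of light and 2.24 ± 0.36 in the dark (SD, n = 6 each). The log2 difference was -1.40 (SE 0.14), a level 2.64 times higher in the dark. Its size depended on how the arrays were scaled, and it was -1.92 on the values as deposited. Within its array XERICO had a median percentile of 87.3 in light and 94.7 in the dark.

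DI21 ranged from 0.0280 to 0.127 with a median of 0.0638 in the light arrays, against 0.377 to 0.493 with a median of 0.423 in the dark arrays. The gap between the groups was the widest of the 3 genes, with the lowest dark array at 2.98 times the highest light array. The mean was 0.0678 ± 0.0380 after 1 h of light and 0.427 ± 0.046 in the dark (SD, n = 6 each). The log2 difference was -2.85 (SE 0.35), a level 7.21 times higher in the dark. The dark arrays lay close together, with an SD of 10.8% of the mean, whereas the light arrays differed among themselves by up to 4.52 times and had an SD of 56.0% of the mean. Light replicates 3, 4 and 1 were the lowest (0.0280, 0.0365 and 0.0443) and light replicate 2 was the highest. Within its array DI21 stood in the dim part in light, at a median percentile of 22.2, and above the middle in the dark, at a median percentile of 68.8.

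The light values of DI21 were dim enough for the floor to matter. The lowest of them was 4.15 times the floor of 0.00675. At a higher floor (0.145, the 25% quantile of the deposited values above 0), all 6 light arrays lay at or below it and the log2 difference became -1.55. That is a lower limit on the size of the difference, since every light value then counts as 0.145. The light level was below the dark level at each floor tried, while the figure of 7.21 times rests on light values near the bottom of the scale.

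**Figure D1:**
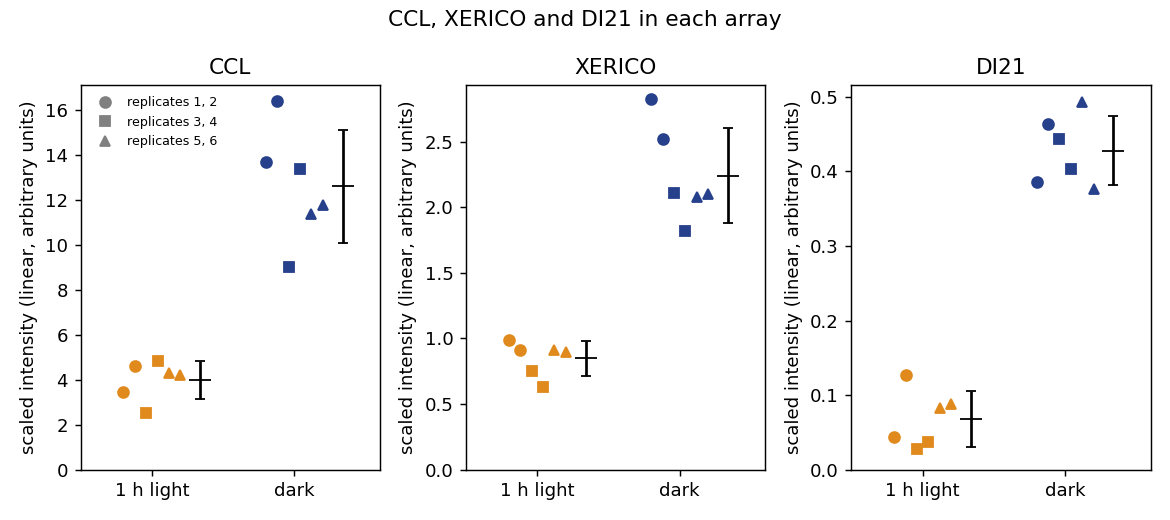
Scaled intensity (vertical axis, linear, arbitrary units, from 0) of CCL, XERICO and DI21 in the 6 arrays after 1 h of light (left, orange) and the 6 dark arrays (right, blue), with symbols for consecutive replicate numbers and black bars for mean ± SD. In each panel all light arrays lie below all dark arrays, and DI21 has the widest gap, with light arrays up to 0.127 and dark arrays from 0.377.

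The standing of a gene within its own array does not depend on how the arrays are scaled against each other. For CCL the percentile ran from 95.5 to 97.4 in light arrays and from 98.4 to 99.1 in dark arrays. For XERICO it ran from 80.5 to 88.5 in light arrays and from 94.1 to 95.8 in dark arrays. For DI21 it ran from 17.2 to 32.1 in light arrays and from 64.9 to 73.7 in dark arrays. None of the 3 ranges in light touched the range in the dark. Quantile-normalized values follow these same ranks, so this restates the separation given above and is no second check of it. On the deposited values the groups also did not overlap, and the lowest dark array was 2.33 times the highest light array for CCL, 2.71 times for XERICO and 3.03 times for DI21.

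**Figure D2:**
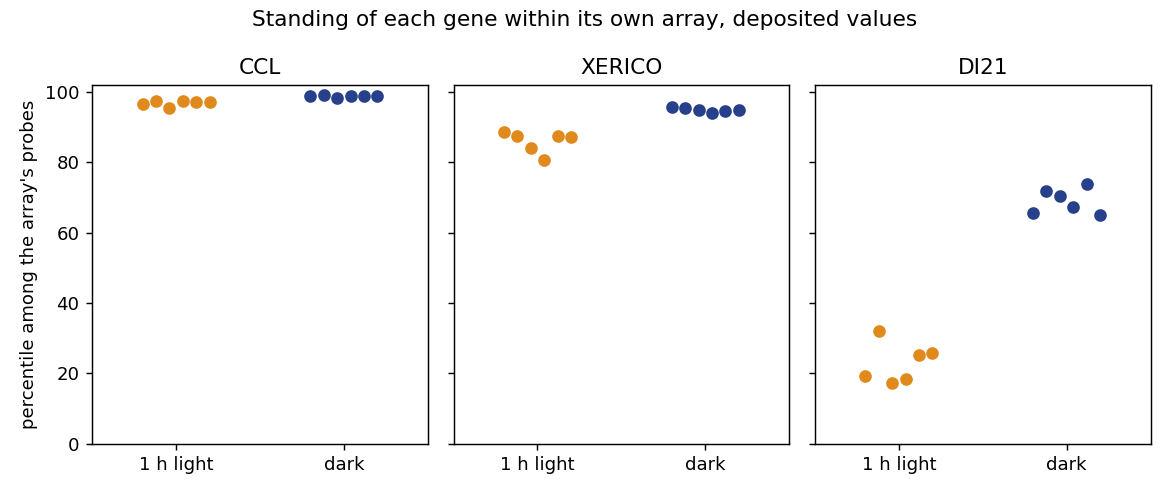
Percentile of each gene among all probes of the same array (vertical axis, percent, deposited values), for the 6 arrays after 1 h of light (left, orange) and the 6 dark arrays (right, blue), 1 point per array. CCL moves little because it stays near the top (medians 97.1 in light and 98.8 in the dark), while DI21 has medians of 22.2 in light and 68.8 in the dark.

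The light value was below the dark value at each replicate number. Groups that do not overlap fix that sign for any matching of arrays, so only the sizes are described. Between the light and the dark array of the same number, CCL differed by -1.99 to -1.40 on the log2 scale and XERICO by -1.53 to -1.18. DI21 was the most variable, with differences from -3.99 at number 3 to -1.87 at number 2. By consecutive numbers, the differences of CCL were -1.91 for numbers 1 and 2, -1.65 for 3 and 4, and -1.44 for 5 and 6. Those of XERICO were -1.49, -1.51 and -1.20 in the same order. DI21 differed by -2.50, -3.72 and -2.33 in that order, so that numbers 3 and 4 had the largest difference. In numbers 3 and 4 the mean of DI21 was 0.0323 in light and 0.423 in the dark, against light means of 0.0855 (numbers 1 and 2) and 0.0856 (numbers 5 and 6). Light replicates 1 and 2 were themselves apart, at 0.0443 and 0.127, and replicate 1 was near light replicate 4 (0.0365).

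A lower level in light was common on this array. By limma with Benjamini-Hochberg adjustment over 2966 probes tested, 609 were lower in light (20.5%) and 589 were higher (19.9%). This balance depended on the scaling, with 879 lower and 423 higher on the values as deposited, and 542 lower and 781 higher with arrays centred on their 75th percentiles. Of the 596 tested probes that match 1 gene, 76 (12.8%) had all 6 light values under all 6 dark values, and CCL, XERICO and DI21 are 3 of them. A difference of more than 2-fold in the same direction was seen in 74 of the 596 (12.4%), and all 3 genes are among them. Because the genes were picked for this difference, nothing is read from these counts about them. The median log2 difference was -0.01 over all probes tested and -1.67 over the 3 genes.

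By size, a log2 difference as low as that of DI21 was found in 4 of the 596 single-gene probes (0.671%), DI21 included. For CCL the number was 26 (4.36%) and for XERICO 40 (6.71%). As a measure of how bright the probes were, the mean signal of the CCL probe was at the 97.9 percentile of the tested probes, that of XERICO at 91.6 and that of DI21 at 29.8.

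**Figure D3:**
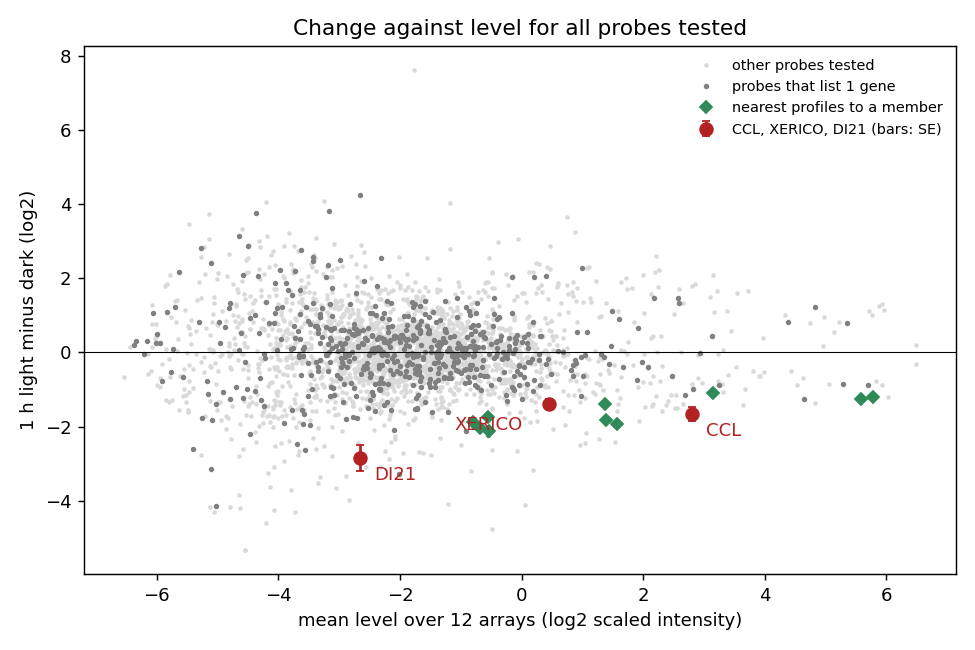
Log2 difference, 1 h light minus dark (vertical axis), against the mean log2 scaled intensity over 12 arrays (horizontal axis) for the 2966 probes tested, with single-gene probes in dark grey, the genes of nearest profile as green diamonds, and CCL, XERICO and DI21 in red with SE bars. XERICO (-1.40), CCL (-1.67) and DI21 (-2.85) lie below 0 at different levels, and other probes have differences as low or lower (132 as low as CCL, 210 as low as XERICO and 32 as low as DI21, each count with the gene itself).

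The profiles of the 3 genes over the 12 arrays were compared after the mean of each gene was taken off, by the root mean square difference of log2 values, which is 0 for identical profiles. The distance between CCL and XERICO was 0.36, that between CCL and DI21 was 0.77 and that between XERICO and DI21 was 0.88. XERICO was number 8 of 595 other single-gene probes in likeness to CCL, and CCL was number 20 of 595 in likeness to XERICO. From DI21, CCL was number 9 and XERICO number 18, but DI21 was number 140 from CCL and number 284 from XERICO. These ranks mostly follow the light and dark difference on which the genes were chosen, so they are no evidence of likeness beyond it. The median distance of all 595 was 1.05 from CCL, 0.91 from XERICO and 1.63 from DI21.

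The genes with the profile nearest to CCL were AT-HF (AT4G26900, distance 0.25), an enzyme of histidine synthesis, and AT1G18290 (0.29), followed by PSBW (0.34), a small subunit of photosystem II, CUTA (0.34) and AT1G51350 (0.35). AT-HF had 0.213 to 0.341 in light arrays and 1.01 to 1.16 in dark arrays. AT1G18290 had 0.258 to 0.456 in light arrays and 1.04 to 1.41 in dark arrays. Both sets of light values lay below the dark values, as for CCL, and the selection by likeness fixes that.

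Nearest to XERICO were AT2G27290 (0.21), PSBW (0.22), AT4G19900 (0.24), AT3G52070 (0.25) and AT1G51350 (0.28). AT2G27290 was among the brightest probes, at 26.7 to 36.6 in light arrays and 58.7 to 88.8 in dark arrays. AT3G52070 had 1.44 to 1.76 in light arrays and 3.51 to 4.82 in dark arrays, with a log2 difference of -1.40, the same to 2 decimals as that of XERICO. PSBW and AT1G51350 were near to both CCL and XERICO, and PSBW reached the top of the deposited scale (100) in 1 dark array.

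No profile was as near to DI21, but its median distance to all 595 was also the largest (1.63). The distance grows with the size of a difference and with the spread among arrays. DI21 had the largest difference of the 3 genes. Its light arrays also spread most (log2 SD 0.848, against 0.352 for CCL and 0.242 for XERICO). The nearest 5 were CUTA (0.60), AT-HF (0.69), AT5G66090 (0.71), AT4G32060 (0.72) and AT1G51350 (0.72). CUTA had 0.180 to 0.453 in light arrays and 1.11 to 1.59 in dark arrays, a log2 difference of -2.04, and AT5G66090 had 0.212 to 0.601 in light arrays and 1.28 to 1.67 in dark arrays, a log2 difference of -2.11. AT1G51350, at 1.13 to 1.62 in light arrays and 4.40 to 5.67 in dark arrays, was the 1 gene near to all 3. Which genes are nearest changed with the scaling, and on the values as deposited 1 of the 5 genes nearest to CCL, 2 of those nearest to XERICO and 3 of those nearest to DI21 were the same.

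Few other genes of the same pathways could be followed. Of 9 lists for the clock, mRNA decay, abscisic acid synthesis, abscisic acid signalling, gibberellin and DELLA proteins, RING-H2 relatives of XERICO, drought and cold, dark-inducible genes and reductase tethering, 1 had a tested single-gene probe. That probe is of AT5G52660, the clock-related transcription factor RVE6, from the clock list of 30 genes. AT5G52660 was dim, at 0 to 0.0674 in light arrays and 0 to 0.119 in dark arrays, and listed at 0 in 1 light array and 1 dark array. The groups overlapped, and it did not pass (log2 difference 0.25, SE 0.80, limma adjusted p = 0.84), against 40.4% of all probes that did.

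The drought and cold list of 32 genes, to which the relatives of DI21 belong, had no tested single-gene probe, but 2 tested probes each match more than 1 gene of that list and no other gene. They match the same genes and disagree. The first had 0.277 to 0.497 in light arrays and 0.298 to 0.433 in dark arrays and did not pass (log2 difference 0.07, limma adjusted p = 0.76). The second had 0.157 to 0.256 in light arrays and 0 to 0.0985 in dark arrays, where 2 arrays were listed at 0. It was higher in light (log2 difference 2.88, SE 0.69, limma adjusted p = 0.0056), the opposite direction to DI21. With 2 dark arrays at 0 the floor set the size, and the log2 difference was 1.95 with the floor at the 5% quantile and 0.48 at the 25% quantile, and 1.93 without numbers 5 and 6. With the 3 means of consecutive numbers per group it did not pass (limma adjusted p = 0.063). None of the 17 marker genes of mesophyll, guard cells, roots and phloem was on a single-gene probe, so the tissue was not checked.

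The gene next to CCL on its chromosome in the TAIR10.1 gene order, AT3G26730, was the 1 gene among the 10 nearest protein-coding genes of any of the 3 that had a single-gene probe. It was looked up after the values were available. AT3G26730 was listed at 0 in 2 of 6 light arrays and in all 6 dark arrays and reached 0.170 in light, so it was not tested and gives no dark level.

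All 3 genes kept the sign of their difference under the 28 other settings tried, which the choice of genes with separate groups largely fixes. CCL lay between -1.96 and -1.53, and XERICO between -1.92 and -1.29. DI21 lay between -3.26, without numbers 5 and 6, and -1.55, with the raised floor.

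**Figure D4:**
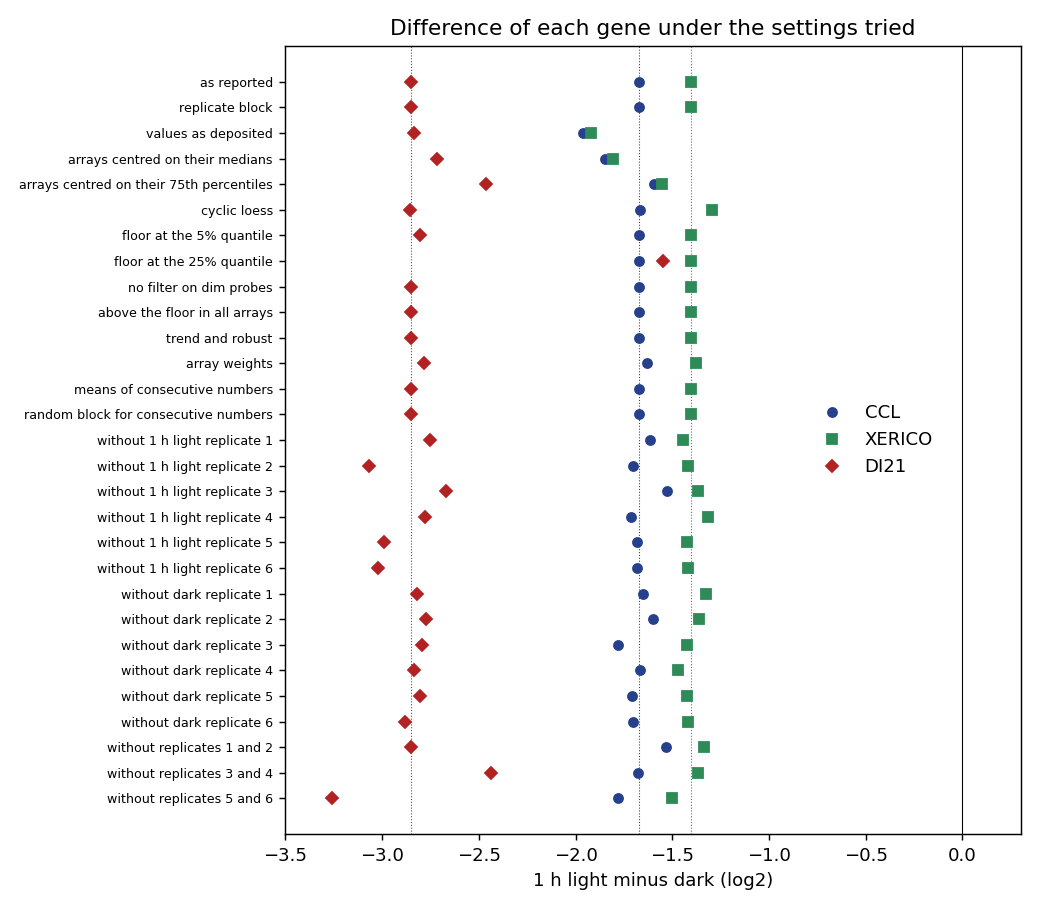
Log2 difference, 1 h light minus dark (horizontal axis), of CCL, XERICO and DI21 as reported (first line, dotted guides) and under 28 other settings (1 line each). All points lie below 0, and DI21 moves most with the raised floor (-1.55). XERICO and CCL draw together at -1.92 and -1.96 on the values as deposited. They are also close with arrays centred on their medians (-1.805 and -1.847) or on their 75th percentiles (-1.551 and -1.593).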

How the data were processed

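The deposited table holds 1 relative intensity per probe and array, a linear value, for 12 samples. Scanning, background correction and scaling by the authors are not given in the sources used here. Groups and replicate numbers came from the sample titles. Arrays were quantile normalized, a floor was set at the 1% quantile of the deposited values above 0, log2 was taken, and 473 probes at that floor in more than 6 arrays were left out. The 1 h light and dark groups were compared in limma 3.58.1 (R 4.3.3, lmFit and eBayes, two-sided), with Benjamini-Hochberg adjustment and a threshold of 0.05. The fit was tried on simulated data with independent arrays, so that trial does not cover arrays that deviate together. Figures were drawn with matplotlib 3.10.9.

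The members and lists were chosen with earlier results of these data known. Gene names came from the platform annotation, matched by gene identifier to a TAIR10.1 gene table (690 of 692). No coordinates are printed, because the build used for the array design was not stated. Named genes are the 3 members, the 5 genes of nearest profile to each, and up to 4 tested genes per list.

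Both groups carry replicate numbers 1 to 6. The labels do not say what a number stands for. After group means were taken off, same-numbered light and dark arrays correlated at 0.301 to 0.557 over 1483 probes. The highest correlation with a dark array of another number was 0.063 for light replicate 1. It was 0.212 for light replicate 3 (0.301 at its own number) and 0.257 for light replicate 4 (0.354). The reported fit and SE values did not use the numbers. Same-numbered arrays were taken as pairs only for the differences by number and in the replicate block setting.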

Additional observations from a re-analysis of the deposited data

Results flagged for a closer look

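Among 32 sets of 6 values, those of the genes and probes named above in each group, 1 held an array whose gap to its nearest neighbour took up most of the group's range, and chance gives this in about 1 set in 20. It was AT-HF (AT4G26900) in light replicate 3, at -2.23 on the log2 scale against a median of -1.62 in the other light arrays. No value of CCL, XERICO or DI21 stood apart in this way.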

How the results depend on the processing

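The difference of CCL stayed within 1 SD of the reported value under all 28 settings. That of XERICO was -1.92 on the values as deposited and -1.80 with arrays centred on their medians, and that of DI21 was -1.55 with the floor at the 25% quantile. Relative to the median of all probes, which was -0.21 as deposited and 0.16 with arrays centred on the 75th percentile, XERICO was at -1.71 under both and CCL at -1.76 and -1.75. In the reported fit, relative to its own median, XERICO was at -1.39 and CCL at -1.66. With cyclic loess they were at -1.27 and -1.64. For XERICO the scaling thus changed more than the median of the probes. Leaving out 1 array gave -1.78 to -1.53 for CCL, -1.47 to -1.31 for XERICO and -3.07 to -2.67 for DI21. Of all calls, 49.2% were higher in light as reported, 32.5% as deposited, 39.1% with arrays centred on their medians and 59% after centring on the 75th percentile. With the replicate block, 673 probes were lower and 641 higher in light, and no call of a pathway probe changed. With the 3 means of consecutive numbers per group, 408 were lower and 406 higher. AT5G52660 was left out as dim with the floor at the 25% quantile and where all arrays had to be above the floor, and was not called in the others. It changed sign to -0.092 with the floor at the 5% quantile, -0.18 with array weights, -0.49 without numbers 1 and 2, and -0.055 without numbers 3 and 4, and ran from -0.20 to 0.735 when 1 array was left out. The first drought-list probe, also not called, was at -0.16 as deposited, -0.042 with median centring and -0.082 without numbers 5 and 6, and ran from -0.025 to 0.147 when 1 array was left out. The second drought-list probe lost its call with the means of consecutive numbers (limma adjusted p = 0.063). It was left out where all arrays had to be above the floor. The cause of these changes was not tested.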
